A study of Mus musculus with 12 samples.

Results

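Cerebellar granule cells, Purkinje cells, unipolar brush cells and Bergmann glia have transcripts that are scarce or more restricted in the hippocampus, and 33 such genes were followed in 6 total RNA libraries of mouse hippocampus. The 33 symbols were a fixed list, named for the cell types of the cerebellum in which they are typical, out of 24736 gene symbols in the table. Only Crtam was not assigned to a cell type here. The genes were chosen by their measured CPM in the library of APP/PS1 replicate 3 against the other 5 libraries. That contrast is therefore a description and carries no test. All 33 symbols were found in the table.

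The animals were males aged 4 months, 3 of them APP/PS1 transgenics (APPswe and PSEN1dE9) and 3 wild-type (WT) littermates numbered 1, 2 and 4. Each genotype gave 3 total RNA libraries and 3 small RNA libraries. No label says whether an animal's hippocampi were pooled, and although the small RNA samples carry the same numbers, the labels do not say that a number is the same mouse in both tables. Values are CPM, estimated counts scaled to the TMM-adjusted library size, so levels can be compared between libraries for 1 gene but not between genes of different length.

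The cerebellum is built around a small number of neuron types. Granule cells send parallel fibres to the dendrites of Purkinje cells, the output neurons of the cerebellar cortex, and cerebellin proteins released by granule cells organise these contacts. Purkinje cells are rich in calcium buffers and in the machinery of calcium release from internal stores. Unipolar brush cells are excitatory interneurons of the granular layer, and Bergmann glia are the radial astrocytes of the cerebellar cortex. Several of the same genes serve the hippocampus too, where Calb1, Itpr1, Neurod1, Eomes, Pax6, Lhx1, Lhx5, Rora and Etv1 are known in pyramidal cells, dentate granule cells, progenitors or Cajal-Retzius cells.

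The library of APP/PS1 replicate 3 stood apart. Its correlation with the other 5 libraries, across the log2 values of 18060 genes that passed edgeR's expression filter, lay between 0.972 and 0.974, against 0.988 to 0.991 among the other 5. These genes are not independent replicates. In that library 505 of the 18060 genes (2.8%) lay at least 2-fold above the highest of the other 5, after adding 0.1 CPM. The same share was 0.0443% and 0.0554% for APP/PS1 replicates 1 and 2, and it was 0.0388%, 0.0443% and 0.0941% for WT replicates 1, 2 and 4. In APP/PS1 replicate 3, 0.781% of genes lay at least 2-fold below the lowest of the others. Library totals lay between 120958765 and 146904552 estimated counts, and by the spacing of the low values about 4 estimated counts stand for 1 sequenced fragment. Values are given below with and without that library where they rest on it.

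All 33 cerebellar genes were highest in APP/PS1 replicate 3 (31.4% of genes tested), and all 33 lay at least 2-fold above the highest of the other 5 libraries (2.8% of the genes tested and 2.32% of all 24736). Since the genes were chosen for this library, nothing is read from that count. Together they took 1.00% of the estimated counts of APP/PS1 replicate 3 and 0.130% to 0.141% of those of the other 5. The median log2 ratio of the 33 genes to the mean of the other 5 libraries was 4.06, against 0.01 for all genes tested. In bulk tissue, more cells of a type and more RNA per cell cannot be told apart. Over the highest of the other libraries, 8 genes were at least 100-fold higher, 11 were from 10-fold to under 100-fold higher, and 13 were from 2-fold to under 10-fold higher. The last of the 33, Skor2, was at 0 in all of the other 5 libraries.

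**Figure D1:**
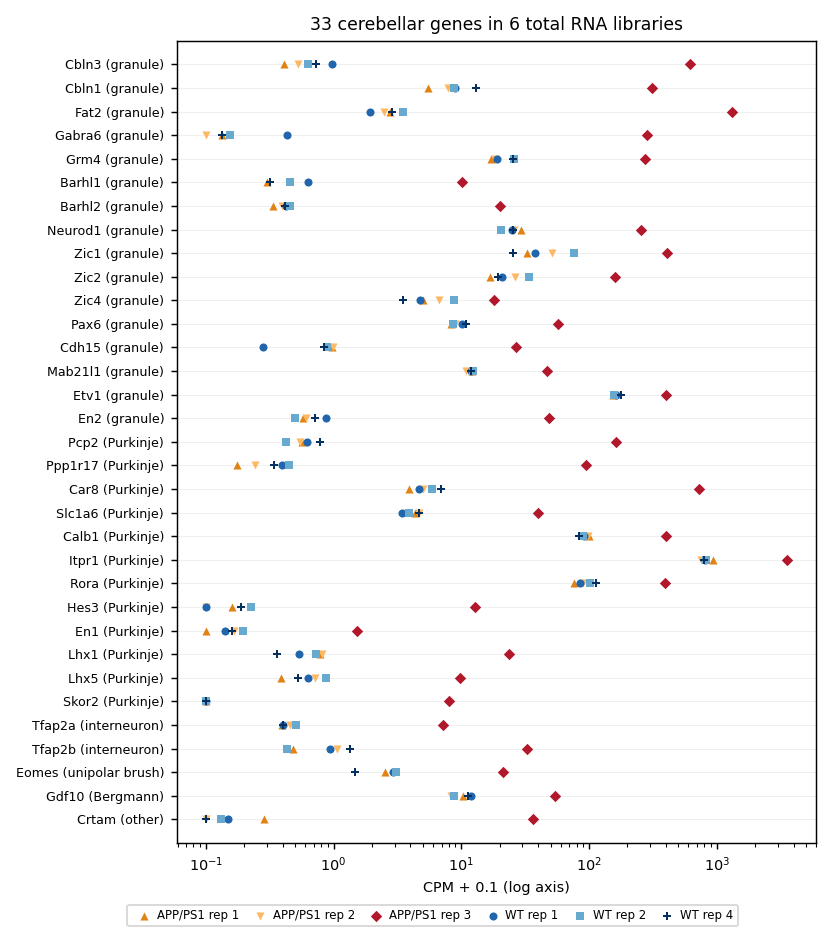
CPM plus 0.1 on a log axis for each of the 33 genes, with 1 marker per total RNA library and genes ordered by cell type. The red diamonds of APP/PS1 replicate 3 lie to the right of all other markers in every row, while the other 5 libraries, WT and APP/PS1 alike, lie close together.

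The same measure taken for each library in turn shows how far the others were from this level. The median log2 ratio to the other 5 libraries was -1.08 in APP/PS1 replicate 1, -0.61 in replicate 2, and -0.76, -0.73 and -0.92 in the WT libraries 1, 2 and 4. Those 5 values are below 0 because the mean of the others then includes APP/PS1 replicate 3.

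**Figure D2:**
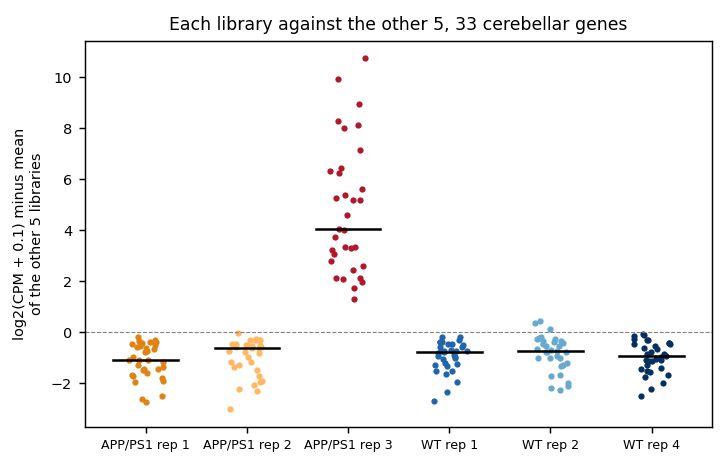
Difference between log2(CPM + 0.1) in a library and the mean of the other 5, with 1 point per gene and a black bar at the median of the 33 genes. The points of APP/PS1 replicate 3 span 1.31 to 10.75, and its median of 4.06 stands against medians of -0.61 to -1.08 in the other libraries.

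Granule cell genes were the larger group, with 16 members. Cbln3, a cerebellin of granule cells that pairs with Cbln1 (mm10, chromosome 14, 55878920 to 55884256), reached 612 CPM in APP/PS1 replicate 3. The remaining APP/PS1 libraries had 0.31 and 0.42 CPM, and there were 0.87, 0.53 and 0.63 CPM in WT 1, 2 and 4. The one high library was 702-fold above the highest of the others, and without it the APP/PS1 values lay below the WT values. Fat2, an atypical cadherin of parallel fibres (chromosome 11, 55250609 to 55337505), stood at 1327 CPM in APP/PS1 replicate 3, at 2.67 and 2.38 CPM in the other APP/PS1 libraries and at 1.84, 3.39 and 2.77 CPM in WT. Both genotypes overlapped for Fat2 outside the high library.

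Gabra6 encodes the alpha 6 subunit of GABA-A receptors, a subunit of cerebellar granule cells (chromosome 11, 42306437 to 42321072). Its estimated counts were 38654 in APP/PS1 replicate 3, 4 and 0 in the other APP/PS1 libraries, and 40, 7 and 5 in WT. In 4 of the 5 other libraries it was at or under 12 estimated counts, about 3 fragments, so its level there is near the limit of detection. APP/PS1 replicate 3, at 283 CPM, was 860-fold above WT replicate 1, the highest of the others.

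Cbln1, a cerebellin that granule cells release at parallel fibre synapses, was present in all libraries (chromosome 8, 87468853 to 87472592). It stood at 310 CPM in APP/PS1 replicate 3, at 5.43 and 7.82 CPM in the other APP/PS1 libraries and at 8.81, 8.67 and 12.9 CPM in WT. Grm4, a presynaptic metabotropic glutamate receptor of parallel fibres, stood at 277 CPM in APP/PS1 replicate 3, at 16.8 and 18.2 CPM in the other APP/PS1 libraries and at 18.9, 25.5 and 25.2 CPM in WT. For both genes all values outside the high library lay lower in APP/PS1 than in WT. Neurod1, Cdh15, Calb1 and Lhx1 separated the other way. The share of all genes that separate so with 2 APP/PS1 and 3 WT libraries was not counted. Nothing is therefore read from such a separation for Cbln1, Cbln3, Grm4 or Ppp1r17.

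Transcription factors of the granule lineage spanned a wide range. En2, an engrailed homeobox gene, stood at 48.3 CPM in APP/PS1 replicate 3 and 0.40 to 0.77 CPM in the others, and Barhl1 and Barhl2, homeobox genes of this lineage, at 10.1 and 19.9 CPM against at most 0.53 and 0.36 CPM. Neurod1, a basic helix-loop-helix factor that dentate granule cells also use, stood at 257 CPM against 20.4 to 29.02 CPM. Pax6 stood at 57.1 CPM against 8.25 to 10.7 CPM. Etv1, an ETS factor, had the smallest excess of the 33 by the log2 ratio, at 403 CPM against 155 to 178 CPM. Cdh15, a cadherin, and Mab21l1 were 29.7-fold and 3.81-fold above the highest of the other libraries. En2, Barhl1 and Barhl2, low in the other 5 libraries, thus had larger ratios than Neurod1, Pax6 and Etv1, which are known in the hippocampus. That order did not hold for all of the 33. Mab21l1, not listed for the hippocampus, had a log2 ratio of 1.99, below Neurod1 (3.36) and Pax6 (2.62). Lhx1, which is listed for it, had 5.26, above Barhl1 (4.61).

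The 3 Zic zinc finger genes, factors of granule cell precursors that meninges and septum also express, varied among the other libraries. Zic1 (chromosome 9, 91358058 to 91365768) stood at 411 CPM in APP/PS1 replicate 3, at 32.4 and 51.6 CPM in the other 2 APP/PS1 libraries, and at 37.8, 75.7 and 25.4 CPM in WT replicates 1, 2 and 4. Zic2 stood at 159 CPM in APP/PS1 replicate 3 and at 16.8, 26.4, 20.9, 33.9 and 19.4 CPM in the same order of the others. Zic4 (chromosome 9, 91365631 to 91389351) stood at 17.9 CPM and at 4.91, 6.54, 4.63, 8.61 and 3.38 CPM. WT replicate 2 and APP/PS1 replicate 2 were the highest of the other 5 for all 3 genes. Summed over 8 meningeal genes, those libraries were also the highest of the other 5, at 157 and 155 CPM against 90.1 to 135 CPM, and the part of meningeal cells in the Zic values was not tested. Zic1 and Zic4 overlap in the annotation and the strand setting of the counting is not given, so reads at their shared end cannot be told apart.

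Purkinje cell genes, 12 in number, were high in the same library. Pcp2, a modulator of G protein signalling (chromosome 8, 3623369 to 3625547), stood at 163 CPM in APP/PS1 replicate 3, at 0.46 and 0.44 CPM in the other APP/PS1 libraries and at 0.52, 0.32 and 0.68 CPM in WT. Pet100 overlaps Pcp2 in the annotation and stood at 17.4 CPM against 10.4 to 14.7 CPM. Ppp1r17, a phosphatase inhibitor known as G-substrate (chromosome 6, 56017497 to 56032689), stood at 95.0 CPM in APP/PS1 replicate 3, at 0.08 and 0.14 CPM in the other APP/PS1 libraries and at 0.30, 0.35 and 0.25 CPM in WT. Outside the high library its APP/PS1 values lay below all WT values.

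The genes of calcium signalling differed in how much the hippocampus itself expresses them. Car8, a carbonic anhydrase-related protein that binds the inositol trisphosphate receptor (chromosome 4, 8141493 to 8239041), stood at 733 CPM in APP/PS1 replicate 3, at 3.80 and 4.93 CPM in the other APP/PS1 libraries and at 4.54, 5.83 and 6.88 CPM in WT. Itpr1, which encodes that receptor (chromosome 6, 108213083 to 108551116), stood at 3570 CPM against 747 to 938 CPM, and Calb1, the calcium buffer calbindin, at 400 CPM against 83.0 to 99.3 CPM. Their ratios to the highest of the other libraries were 106-fold for Car8, 3.81-fold for Itpr1 and 4.03-fold for Calb1. Counted as CPM above the mean of the other 5, the differences were 727 for Car8, 2746 for Itpr1 and 308 for Calb1.

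Rora, the nuclear receptor of Purkinje cells, stood at 392 CPM in APP/PS1 replicate 3 and 75.9 to 113 CPM in the others, and Slc1a6, a glutamate transporter of their dendrites, at 39.4 CPM against 3.35 to 4.60 CPM. Lhx1 and Lhx5, LIM homeobox genes, stood at 23.5 and 9.62 CPM against at most 0.72 and 0.76 CPM. Hes3, a repressor of the hairy and enhancer of split family, stood at 12.7 CPM against at most 0.13 CPM, and En1 at 1.41 CPM against at most 0.10 CPM. Skor2, a corepressor of Purkinje cell development, had 1077 estimated counts in APP/PS1 replicate 3 and 0 in each of the others. Against a floor of 3 fragments per library, or 0.101 CPM, Skor2 was at least 77.8-fold higher.

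The promoters of Cbln3 and Gabra6, for granule cells, and Pcp2, for Purkinje cells, are shown because these genes gave some of the largest ratios of their cell types. Each line holds the 250 bases before the annotated start in RefSeq, 5′ to 3′ on the gene's strand, build GRCm38.p6, with searched motifs in capitals.
Cbln3 promoter, chr14:55884257-55884506, minus strand: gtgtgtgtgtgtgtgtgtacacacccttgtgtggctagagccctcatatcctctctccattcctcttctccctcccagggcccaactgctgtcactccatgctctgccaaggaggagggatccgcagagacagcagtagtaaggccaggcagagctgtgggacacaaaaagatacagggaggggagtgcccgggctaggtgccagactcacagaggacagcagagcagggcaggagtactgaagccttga
Gabra6 promoter, chr11:42321073-42321322, minus strand: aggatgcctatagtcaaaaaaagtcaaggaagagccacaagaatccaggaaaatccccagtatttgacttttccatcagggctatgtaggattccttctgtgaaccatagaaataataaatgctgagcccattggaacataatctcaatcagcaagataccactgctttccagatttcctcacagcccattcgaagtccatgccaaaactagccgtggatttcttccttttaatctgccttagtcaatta
Pcp2 promoter, chr8:3625548-3625797, minus strand: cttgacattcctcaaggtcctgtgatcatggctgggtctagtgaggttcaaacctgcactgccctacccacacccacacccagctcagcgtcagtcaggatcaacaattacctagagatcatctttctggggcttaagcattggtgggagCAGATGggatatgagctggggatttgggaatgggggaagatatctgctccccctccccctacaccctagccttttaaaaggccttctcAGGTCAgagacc
The motifs searched were AGGTCA, a nuclear receptor core, the E-box CAGATG, the E-box CAGCTG, the E-box CATATG, and the homeodomain core TAATTA, on both strands. RefSeq promoter windows, 250 bases before to 50 after a start, were found for 20 of the 33 genes. AGGTCA was present in the windows of 3 of the 20, Fat2, Barhl1 and Pcp2, and in those of 18.1% of 27025 genes. CAGATG was present for 2 of 20 against 19.2%, CAGCTG for 3 of 20 against 18.3%, CATATG for 2 of 20 against 4.48%, and TAATTA for 3 of 20 against 6.12%. In the printed part, the Pcp2 promoter holds AGGTCA and CAGATG, and those of Cbln3 and Gabra6 hold none of the 5 motifs. A match is a run of letters in this window and nothing more.

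The members named for scarcer cerebellar cell types were high in the same library, with only 1 gene each for unipolar brush cells and Bergmann glia. Eomes, a T-box factor of unipolar brush cells and of progenitors in the dentate gyrus, stood at 21.3 CPM in APP/PS1 replicate 3, at 2.45 and 2.95 CPM in the other APP/PS1 libraries and at 2.83, 2.98 and 1.36 CPM in WT. Gdf10, a growth factor of the BMP family made by Bergmann glia, stood at 54.1 CPM in APP/PS1 replicate 3, at 10.2 and 8.23 CPM in the other APP/PS1 libraries and at 11.8, 8.59 and 11.2 CPM in WT. Tfap2a and Tfap2b, AP-2 factors of cerebellar inhibitory neurons, were 17.3-fold and 26.3-fold above the highest of the other libraries. Crtam, an adhesion receptor that was not assigned to a cerebellar cell type here, was 195-fold above it. Other annotated genes overlap Pax6, Mab21l1, Slc1a6, Itpr1, Rora, Hes3 and Tfap2a, and Gm33408 overlaps Eomes, so part of their counts could come from a neighbour. Summed differences from the mean of the other 5 were 3948 CPM for the 16 granule cell genes and 4426 CPM for the 12 Purkinje cell genes, or 1681 CPM for the latter without Itpr1. Both sums depend on gene length, and the proportion of the cell types was not estimated from them.

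The 9 genes also known in the hippocampus had a median log2 ratio of 2.62 in APP/PS1 replicate 3, and the other 24 a median of 5.30, with overlapping ranges of 1.31 to 5.26 and 1.73 to 10.75. These ratios are the ones that chose the genes, and the medians are a description.

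Among the other 5 libraries the cerebellar genes differed little in their median, while single genes varied, Cdh15 by 4.95-fold and Itpr1 by 1.25-fold from the lowest to the highest. Relative to the mean of the other 4 libraries, their median log2 ratio was -0.15 in APP/PS1 replicate 1, -0.03 in replicate 2, and -0.02, 0.16 and 0.14 in the WT libraries 1, 2 and 4.

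The genotype comparison shows how strongly 1 library set the group mean. edgeR's quasi-likelihood test on all 6 libraries kept 29 of the 33 genes. Gabra6, En1, Skor2 and Crtam did not pass its filter, which asks for expression in 3 libraries. With all 6 libraries the 29 log2 fold changes, APP/PS1 over WT, were all positive with a median of 2.61. For all 18060 genes tested the median was 0.01, with 9451 positive. No cerebellar gene passed, with a smallest Benjamini-Hochberg adjusted p of 0.887 in edgeR's test, and 1 of 18060 genes (0.00554%) did. At an unadjusted p under 0.05, 9 of the 29 were higher in APP/PS1, with 1.9% of all genes tested higher at that level, and 0 were lower (1.52%). All 3 APP/PS1 libraries lay above all 3 WT libraries for 4 of the 29, Neurod1, Cdh15, Calb1 and Lhx1, against 5.63% of all genes, and below them for 0 (4.76%). These counts hold the library for which the genes were chosen, and nothing is read from them.

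Cbln3 shows the effect on the group values. The WT mean was 0.68 ± 0.18 CPM and the APP/PS1 mean 204 ± 353 CPM (SD, n = 3 per genotype), and the log2 fold change was 8.24 with a standard error (SE) of 3.00. Its edgeR adjusted p was 0.887. The SD of the APP/PS1 group exceeded its mean.

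The fit without APP/PS1 replicate 3 used 2 APP/PS1 and 3 WT libraries and tested the same 29 genes. The median log2 fold change was -0.19, with 21 of 29 negative. Over the same 18060 genes the median was -0.001, with 9084 negative. The log2 fold change was -1.44 for Ppp1r17 (SE 0.54), -0.62 for Cbln1 (SE 0.24) and -0.41 for Grm4 (SE 0.15), the 3 genes with an unadjusted p under 0.05, each lower in APP/PS1. For all genes that share was 2.15% lower and 1.88% higher. None passed adjustment over all 18302 genes, with edgeR's adjusted p at 0.995 for each of the 29, and 5 genes of the whole table (0.0273%) did. Cbln3 then had -0.88 (SE 0.38) and Fat2 -0.09 (SE 0.28), both with the same adjusted p of 0.995 from edgeR. Lhx1 and Cdh15 had the highest values, 0.66 (SE 0.43) and 0.61 (SE 0.59).

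**Figure D3:**
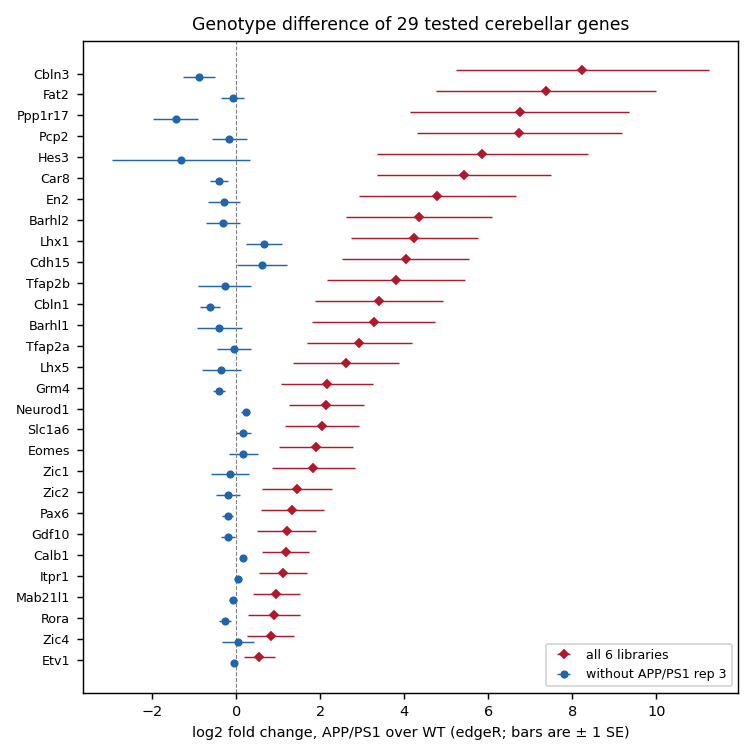
edgeR log2 fold change, APP/PS1 over WT, with bars of 1 SE either side, for the 29 tested genes with all 6 libraries (red diamonds) and without APP/PS1 replicate 3 (blue circles). Red values run from 0.55 for Etv1 to 8.24 for Cbln3, and blue values lie between -1.44 and 0.66.

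A list of 28 further cerebellar genes, none of them among the 33, was read in the same way. That list was also chosen with earlier results of these data known, so its counts are a description. In APP/PS1 replicate 3, 26 of the 28 were highest (31.4% of all genes tested) and 21 lay at least 2-fold above the highest of the other libraries (2.8%), with a median log2 ratio of 2.61. Arhgef33 stood at 71.3 CPM in that library against 0.57 to 0.88 CPM in the others, Nrk, a kinase, at 11.5 CPM against 0.04 to 0.22 CPM, and Slc6a5, the glycine transporter of Golgi cells, at 6.13 CPM against at most 0.05 CPM. With all 6 libraries none of the 25 tested passed edgeR's adjusted threshold and 24 had positive log2 fold changes, as 9451 of all 18060 genes did. Without APP/PS1 replicate 3, 17 of 25 were negative with a median of -0.12, as 9084 of the 18060 genes were, and none passed. Atoh1 and Olig3, factors of the embryonic rhombic lip, were at or near 0 in all libraries, at most 0.04 CPM. Lmx1a stood at 1.79 CPM in APP/PS1 replicate 3, within the 1.08 to 2.95 CPM of the others. Hopx stood at 35.3 CPM there against 12.1 to 25.8 CPM, short of the 2-fold limit.

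Relatives of the cerebellar synapse genes moved apart within the same library. Cbln2 and Cbln4, cerebellins of other brain regions, stood at 3.89 and 3.34 CPM in APP/PS1 replicate 3 against 7.49 to 8.61 CPM and 7.66 to 12.96 CPM in the others. Grid1, which encodes a delta-type glutamate receptor, stood at 55.6 CPM against 86.7 to 93.5 CPM. Cbln1 and Cbln3 were thus highest in APP/PS1 replicate 3, whereas Cbln2, Cbln4 and Grid1 were lowest there among the 6 libraries.

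Markers of the labelled tissue were present in all 6 libraries and lowest in APP/PS1 replicate 3. All 9 telencephalon genes, among them Emx1, Emx2, Lhx2 and Tbr1, were lowest in that library, with log2 ratios of -1.17 to -0.71 and a median of -1.01. Of all genes tested, 30.3% were lowest there. Emx2, a homeobox gene of the hippocampal primordium, stood at 10.05 CPM against 20.8 to 23.7 CPM, Tbr1, a T-box factor of cortical neurons, at 39.8 CPM against 78.1 to 112 CPM, and Emx1 at 2.72 CPM against 5.50 to 6.33 CPM. All 12 genes of the dentate gyrus and CA fields were lowest there too, with a median of -0.80. Cacng5 stood at 7.60 CPM against 14.96 to 22.7 CPM, Dsp, a desmosomal protein of dentate granule cells, at 37.7 CPM against 82.2 to 92.2 CPM, and C1ql2 at 10.8 CPM against 18.9 to 28.9 CPM. Prox1, the dentate granule cell factor, was closest to the others, at 111 CPM against 130 to 145 CPM.

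On a linear scale, the median ratio of APP/PS1 replicate 3 to the mean of the other 5 was 0.496 for the telencephalon list and 0.573 for the hippocampal field list, with ranges of 0.443 to 0.611 and 0.424 to 0.810. None of the 6 total RNA libraries is labelled as cerebellum, so no pure level of the cerebellar genes is given and no share of cerebellar tissue was estimated from these ratios.

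**Figure D4:**
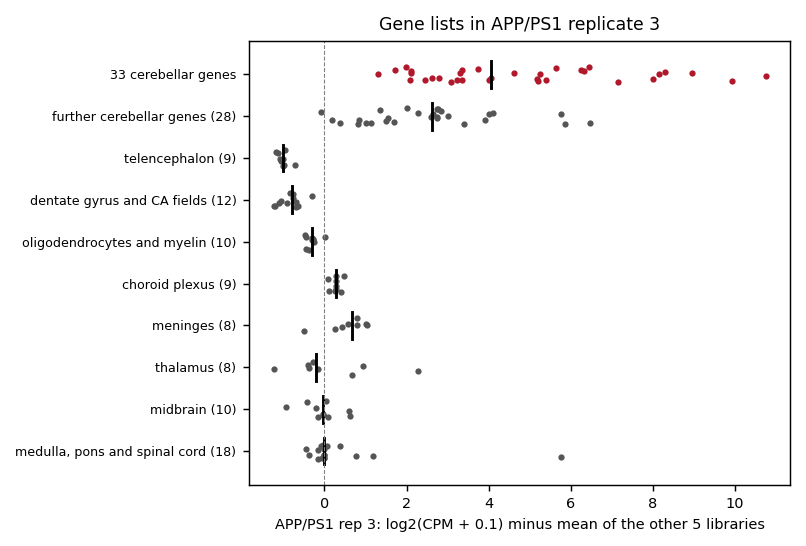
Difference between log2(CPM + 0.1) in APP/PS1 replicate 3 and the mean of the other 5 libraries, with 1 point per gene and a black bar at each list's median. The 33 cerebellar genes and the 28 further ones have medians of 4.06 and 2.61, the telencephalon and hippocampal field lists -1.01 and -0.80, and the hindbrain, midbrain and thalamus lists lie near 0. In the hindbrain list 11 of 18 genes are at 0 in APP/PS1 replicate 3.

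Markers of neighbouring regions and tissues are given for the same library. Of 18 genes of the spinal cord, medulla and pons, the 10 Hox genes were all at 0 in APP/PS1 replicate 3, and the median log2 ratio was 0. In each of the other 5 libraries the 10 Hox genes summed to at most 0.11 CPM, and 5 of them were at 0 in all of these. Of the 18 genes, 11 were at 0 in APP/PS1 replicate 3 and only 4 passed the filter. A gene at 0 in all libraries has a ratio of 0, so that median is no measure of hindbrain tissue. Slc6a5, which Golgi cells share with that list, was the 1 gene at least 2-fold above the others. Dbh and Tph2, enzymes of noradrenaline and serotonin synthesis, stood at 0.49 and 0.75 CPM against 0.25 to 0.82 CPM and 0.62 to 1.05 CPM. The 10 midbrain genes had a median of -0.03, with Th at 0.53 CPM against 0.48 to 1.17 CPM, and none was 2-fold above the highest of the others there. The 8 thalamic genes had a median of -0.21. Calb2, a calcium buffer that the further cerebellar list also holds, was the 1 of them past the fold, at 201 CPM against 33.6 to 47.4 CPM.

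Among non-neuronal lists, the 9 choroid plexus genes had a median log2 ratio of 0.27 in APP/PS1 replicate 3, where the 8 meningeal genes had 0.68 and the 10 myelin genes -0.30. The choroid plexus median was highest in APP/PS1 replicate 2, at 1.04. Slc6a13 and Col1a2, of meningeal fibroblasts, stood at 12.7 and 31.1 CPM in APP/PS1 replicate 3 against 3.11 to 12.2 CPM and 8.11 to 24.4 CPM. Summed over the 8 genes the meningeal level of that library, 149 CPM, lay within the range of the others, 90.1 to 157 CPM. Dcn, which weighs most in that sum, was lowest there, at 43.9 CPM against 55.8 to 69.9 CPM. By contrast, the meningeal median of 0.68 was the highest of the 6 libraries, with 0.55 in WT replicate 2 next. In APP/PS1 replicate 3, 4 of the 8 genes were highest. The 4 pineal genes and the 7 olfactory bulb genes had medians of 0.23 and -0.43, and in the latter Eomes, 1 of the 33, was the 1 gene past the fold. Their part in the level of the cerebellar genes was not tested.

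The small RNA columns give a measure that did not enter the choice of the genes. miRNAs known to be enriched in the cerebellum or in other regions were read in the 6 columns, which are called by their headings. They are printed from RefSeq, build GRCm38.p6, 5′ to 3′, with the seed (bases 2 to 8) in capitals, because the seed sets which targets a miRNA can pair with. Both miR-195a-5p and miR-497a-5p carry the seed AGCAGCA, miR-10a-5p and miR-10b-5p carry ACCCUGU, and miR-221-3p and miR-222-3p carry GCUACAU.
miR-206-3p: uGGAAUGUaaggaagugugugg
miR-195a-5p: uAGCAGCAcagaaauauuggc
miR-497a-5p: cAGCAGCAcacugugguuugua
miR-10a-5p: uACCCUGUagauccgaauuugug
miR-10b-5p: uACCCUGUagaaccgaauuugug
miR-615-3p: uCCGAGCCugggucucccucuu
miR-138-5p: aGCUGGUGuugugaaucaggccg
miR-221-3p: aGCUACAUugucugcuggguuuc
miR-222-3p: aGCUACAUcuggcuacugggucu
Read in the same way, miR-30b-5p was not matched to a sequence.

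miR-206-3p, a miRNA of muscle and of the cerebellum (chromosome 1, 20679055 to 20679076), had 9311 counts in column APP3, 101 and 54 in columns APP1 and APP2, and 131, 69 and 100 in columns WT1, WT2 and WT4. In CPM it stood at 643 in APP3 and 3.09 to 6.54 in the others. It had the highest log2 ratio of all 703 miRNAs tested, 7.03. miR-195a-5p stood at 1319 CPM in APP3 and 193 to 238 CPM in the others, and miR-497a-5p, from the same locus on chromosome 11, at 216 CPM against 45.8 to 60.7 CPM. Column APP3 was the high one for all 3. Outside it the genotypes overlapped for miR-206-3p and miR-195a-5p, whereas for miR-497a-5p columns APP1 and APP2 lay below all WT columns. The share of all miRNAs that separate so was not counted. miR-30b-5p stood at 1498 CPM in APP3 and 722 to 977 CPM in the others.

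Of the 4 cerebellum-enriched miRNAs, 3 lay at least 2-fold above the highest of the other columns in APP3, where 3.7% of the 703 miRNAs tested did. In each of the other 5 columns 0% did. As the lists were chosen with earlier results known, these counts are a description.

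Most of the listed miRNAs known in the forebrain were lower in column APP3 than in the other columns. miR-138-5p stood at 583 CPM against 821 to 1036 CPM, miR-221-3p at 2119 CPM against 2933 to 4283 CPM, miR-222-3p at 1543 CPM against 1939 to 2651 CPM and miR-218-5p at 25640 CPM against 32105 to 36603 CPM. These 4 were lowest in that column. None lay at least 2-fold below the others, where 0.853% of the 703 miRNAs tested did. The share of all miRNAs that were lowest in APP3 was not counted, so nothing is read from that count. Ranked from the highest log2 ratio down, the 4 stood at places 543 to 644 of 703. miR-128-3p, at 72199 CPM, lay within the range of the others, 48922 to 82476 CPM.

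miRNAs of the Hox clusters, which mark hindbrain and spinal cord, gave a different pattern. miR-10b-5p had 2628 counts in column APP3 and 3107 in APP2, against 151 in APP1 and 164, 248 and 299 in WT1, WT2 and WT4. miR-10a-5p had 1348 counts in APP3 and 1879 in APP2, against 152 to 421 in the others, and miR-615-3p had 119 and 26 against 0 to 3. miR-196a-5p and miR-196b-5p had 2 and 3 counts in APP3 and 18 and 13 in APP2. Columns APP2 and APP3 were thus both high for miR-10a-5p and miR-10b-5p, whereas the Hox genes of the total RNA table summed to 0.10 CPM in APP/PS1 replicate 2 and 0 in replicate 3. The Hox genes were at or near 0 in every total RNA library, with a sum of at most 0.11 CPM.

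With all 6 small RNA columns, edgeR called 0 of 703 miRNAs (0%) between the genotypes, with 25 (3.56%) at an unadjusted p under 0.05, and DESeq2 called 0. With no count filter edgeR called 5, among them miR-206-3p (adjusted p 4.1e-04), miR-10b-5p (1.2e-04) and miR-10a-5p (0.0023). Without column APP1 it called 3, among them miR-10b-5p (8.7e-04) and miR-10a-5p (7.1e-04). For miR-206-3p the log2 fold change was 5.40 (SE 1.81) with an adjusted p of 0.958 in edgeR's test, and -0.08 without column APP3. miR-10b-5p had 3.27 (SE 0.90) with the same edgeR adjusted p of 0.958, and 2.92 without column APP3, where edgeR's adjusted p was 0.998.

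**Figure D5:**
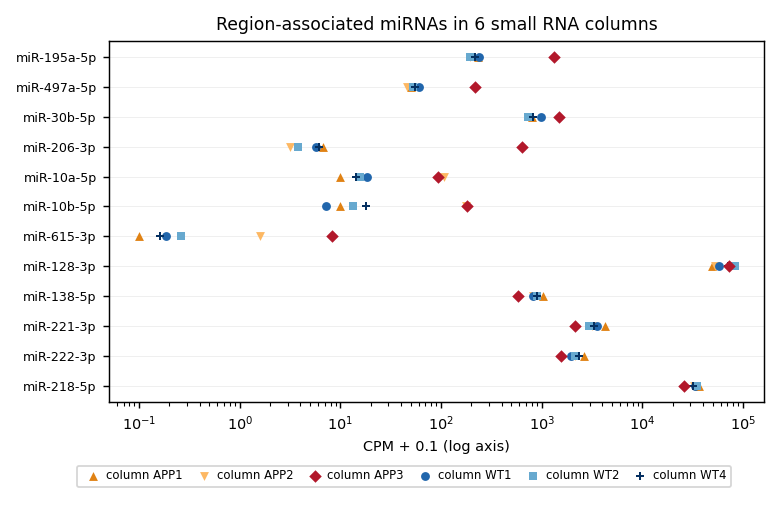
CPM plus 0.1 on a log axis for the region-associated miRNAs with more than 5 CPM in a column, with 1 marker per small RNA column. Column APP3 (red diamonds) lies alone to the right for miR-206-3p, miR-195a-5p, miR-497a-5p, miR-30b-5p and the Hox cluster miRNA miR-615-3p. APP2 lies beside it for miR-10a-5p and miR-10b-5p.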

How the data were processed

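For total RNA the authors deposited estimated counts, whole numbers, by gene symbol for 6 libraries. For small RNA they deposited counts of mature miRNAs in 6 columns. Per the submitters' processing notes, HISAT2, StringTie and DESeq were used with build mm10. Not given in the sources used here are the versions, the roles of these tools, the annotation, the strand setting and any filter. The estimated counts were whole as deposited and not rounded further. The replicates were taken as separate animals, and p-values measure the spread between these samples.

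Genotypes were compared with edgeR 4.0.16 (R 4.3.3), quasi-likelihood test, TMM, default expression filter, no covariate and Benjamini-Hochberg adjustment with a threshold of 0.05. The procedure was tested on simulated data with the same expected level in every library of a genotype. That setting holds no library that stands apart, so it does not cover the case of APP/PS1 replicate 3. The SE is the fold change divided by the root of the F statistic. Library ratios used log2(CPM + 0.1). Coordinates come from RefSeq, GRCm38.p6, where all 33 symbols matched. The genes and all lists were chosen with earlier results of these data known. Genes outside the 33 are the 3 of each list with the largest ratio in APP/PS1 replicate 3 and at least 0.5 CPM in a genotype, the 10 highest and 5 lowest other genes with at least 1 CPM, and the listed miRNAs, and any others were named after their values were seen. The 0.5 CPM was a mean within a genotype and the 1 CPM a mean over all 6 libraries. A gene could thus pass through APP/PS1 replicate 3 alone, as Nrk and Slc6a5 did. Alternatives were DESeq2 1.42.0, other size factors, filters and pseudocounts, the replicate number as a block, counts divided by 4, and leaving out each library.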

Additional observations from a re-analysis of the deposited data

How the results depend on the processing

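The median log2 ratio of the 33 genes in APP/PS1 replicate 3 was 3.68 with 0.5 CPM added and 4.51 with 0.02 CPM added, in place of 4.06 with 0.1 CPM, and 4.03 to 4.14 with 1 of the other libraries left out. No ratio of the 33 changed sign under these settings, other size factors or the median of the others as reference. In the genotype comparison of total RNA, none of the 29 tested genes passed in a setting that gave it an adjusted p. DESeq2 gave one for 11 of the 33, and Gabra6, En1, Skor2 and Crtam, which did not pass the filter, were not followed in these fits. The count of all genes past the threshold was 1, against 24 with DESeq2 and 2 with the replicate block, and 0 to 6 with 1 library left out. Leaving out WT replicate 1 or WT replicate 2 gave 0, where edgeR's unadjusted p was under 0.05 for 371 or 345 genes, and leaving out APP/PS1 replicate 1, APP/PS1 replicate 3 or WT replicate 4 gave 6, 5 and 4. For miRNAs it was 0, against 5 with no count filter and 0 to 3 with 1 column left out.

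Only numbers 1 and 2 are shared between the genotypes, and the correlations of the deviations of same-numbered libraries were 0.12 and -0.04, so the numbers were not taken to pair the animals. A fit with the replicate number as a block gives replicate 3 and replicate 4 a level of their own, so these libraries no longer bear on the contrast. With this replicate block log2 fold changes turned negative, to -0.89 for Cbln3, -0.42 for Cbln1, -0.0077 for Fat2, -0.33 for Grm4, -0.67 for Barhl1, -0.35 for Barhl2, -0.39 for Zic1, -0.34 for Zic2, -0.16 for Zic4, -0.12 for Pax6, -0.084 for Mab21l1, -0.21 for En2, -1.56 for Ppp1r17, -0.25 for Car8, -0.17 for Rora, -0.996 for Hes3, -0.58 for Lhx5, -0.13 for Tfap2a, -0.11 for Eomes and -0.13 for Gdf10.

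With 1 library left out, the lowest value for each gene below came from the fit without APP/PS1 replicate 3. The ranges were -0.88 to 8.84 for Cbln3, -0.62 to 3.98 for Cbln1, -0.086 to 7.97 for Fat2, -0.41 to 2.68 for Grm4, -0.40 to 3.84 for Barhl1, -0.32 to 4.94 for Barhl2, -0.14 to 2.39 for Zic1, -0.20 to 1.92 for Zic2, -0.20 to 1.76 for Pax6, -0.072 to 1.30 for Mab21l1, -0.049 to 0.79 for Etv1, -0.29 to 5.37 for En2, -0.16 to 7.33 for Pcp2, -1.44 to 7.34 for Ppp1r17, -0.40 to 6.01 for Car8, -0.27 to 1.28 for Rora, -1.31 to 6.49 for Hes3, -0.35 to 3.16 for Lhx5, -0.056 to 3.47 for Tfap2a, -0.27 to 4.39 for Tfap2b and -0.19 to 1.61 for Gdf10. For miRNAs with 1 column left out they were -0.20 to 1.25 for miR-497a-5p, -0.10 to 0.45 for miR-30b-5p, -0.075 to 5.99 for miR-206-3p, -0.30 to 0.11 for miR-138-5p, -0.28 to 0.22 for miR-221-3p, -0.21 to 0.17 for miR-222-3p and -0.17 to 0.081 for miR-218-5p. Depth limits the levels of Gabra6, En1, Hes3, Skor2 and Crtam outside APP/PS1 replicate 3.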

Other observations

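Outside the lists, the genes with at least 1 CPM that had the highest log2 ratio in APP/PS1 replicate 3 were Cnpy1 (91.3 CPM against at most 0.29 CPM in the others), Aqp6, an aquaporin (14.1 against at most 0.28 CPM), Ltbp2, which binds latent TGF-beta complexes (34.3 against at most 0.78 CPM), Vwa7 (15.7 against at most 0.37 CPM), Uncx, a homeobox gene (11.4 against at most 0.32 CPM), and Zfp385c (32.2 against at most 1.16 CPM). That 1 CPM was a mean over all 6 libraries, and these genes reached it only through APP/PS1 replicate 3. The ranking thus favours genes high in that library. The 10 highest also held Arhgef33 and Nrk, given above, and Klk1b22 and Hbb-bs, members of families with near-identical copies whose reads the counting could split. Of the 5 lowest, Hbb-b1 and Hba-a2 belong to such families too, Zfp281 was at 0.03 CPM in both APP/PS1 replicates 2 and 3 and 52.6 to 83.3 CPM in the others, Gm7334 was at 0 in 3 of the 6 libraries, and Flicr was at 0 against 1.47 to 2.14 CPM.

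Among small RNAs, 4 miRNAs were looked up after their values were seen. miR-133b-3p, encoded near miR-206 on chromosome 1, stood at 19.3 CPM in column APP3 against 2.20 to 3.54 CPM in the others. The miR-183 cluster on chromosome 6 was high in the same column. There miR-183-5p stood at 122 CPM against 10.4 to 19.7 CPM, miR-96-5p at 36.1 CPM against 2.27 to 5.02 CPM and miR-182-5p at 152 CPM against 10.8 to 22.6 CPM. Also outside the lists, miR-486a-3p and miR-486b-3p, with the same counts, stood at 38.5 CPM in APP3 against 4.17 to 5.13 CPM. By log2 ratio they ranked 5 and 6 of 703, above miR-183-5p (7) and miR-133b-3p (8).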
